A study of Mus musculus with 10 samples.

Results

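Liver RNA of mice with a human SREBP-2 transgene, reduced to the part of the protein that acts in the nucleus, was compared with that of wild-type littermates. The comparison takes 4 of the 10 arrays of the study, the 2 TgSREBP-2 arrays and the 2 arrays of the wild type that belongs to the transgenic lines, here called SREBP wild type. It covers 11868 of the 11934 probe sets of the Affymetrix MG_U74Cv2 array, all except 66 control probe sets. Of these, 7717 carry 1 gene symbol in the platform's annotation, 150 carry several and 4001 carry none, and 5928 genes were measured. Both groups were male, 12 to 16 weeks old, and had eaten a diet high in protein and low in carbohydrate for 2 weeks, which according to the labels raises expression of the transgene. The labels do not name the promoter of the transgene. As background, the published mice of this name carry it behind the promoter of phosphoenolpyruvate carboxykinase, a gluconeogenic enzyme of liver and kidney that such a diet induces. The other groups used below are TgSREBP-1a, with the nuclear form of human SREBP-1a, on the same diet and at the same age, and the pair Scap-/- and Scap wild type. The Scap-/- livers lack SCAP through the MX1-Cre recombinase. Both Scap groups were males of 10 to 12 weeks on chow that had received 4 injections of polyinosinic-polycytidylic acid, the last 14 days before the liver was taken. For each group equal aliquots of RNA from 5 mice were pooled to 20 µg, and the pool was hybridised to 2 arrays. The p-values below thus rest on how far 2 hybridisations of the same pool differ, not on how far mice differ, and a bulk liver pool cannot tell fewer cells of a type from less RNA per cell.

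SREBP-2 is a membrane-bound transcription factor of the endoplasmic reticulum. When sterols run low, SCAP escorts it to the Golgi, where proteases free the part that enters the nucleus and switches on genes of cholesterol synthesis and uptake. The transgene encodes that nuclear part alone, which needs neither SCAP nor cleavage. At its target promoters SREBP binds a sterol regulatory element and usually acts together with NF-Y, a factor that recognises CCAAT, and with Sp1, which recognises GGGCGG.

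The promoters of the 4 named genes with the largest increases are shown, with that of the desaturase gene Fads3, which is not next by size. Cyp2c55 and Slc3a1 rose by more than Fads3 and are not shown. Each run holds the 250 bases before the annotated start, 5′ to 3′ on the strand of the gene, from RefSeq on GRCm38.p6. Capitals mark CCAAT on either strand, so that it reads ATTGG where it lies on the other strand.
Nsdhl, chrX:72918271-72918520, plus strand: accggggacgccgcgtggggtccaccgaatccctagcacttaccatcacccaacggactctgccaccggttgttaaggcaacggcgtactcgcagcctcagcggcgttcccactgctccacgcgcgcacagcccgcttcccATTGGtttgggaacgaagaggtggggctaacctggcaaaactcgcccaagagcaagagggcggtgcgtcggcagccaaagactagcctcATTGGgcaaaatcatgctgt
Pmvk, chr3:89454291-89454540, plus strand: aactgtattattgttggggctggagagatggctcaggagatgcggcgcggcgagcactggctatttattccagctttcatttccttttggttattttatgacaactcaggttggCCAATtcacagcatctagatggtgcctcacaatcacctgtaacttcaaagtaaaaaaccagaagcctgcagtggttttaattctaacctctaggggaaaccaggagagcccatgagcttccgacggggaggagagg
Tm7sf2, chr19:6067851-6068100, minus strand: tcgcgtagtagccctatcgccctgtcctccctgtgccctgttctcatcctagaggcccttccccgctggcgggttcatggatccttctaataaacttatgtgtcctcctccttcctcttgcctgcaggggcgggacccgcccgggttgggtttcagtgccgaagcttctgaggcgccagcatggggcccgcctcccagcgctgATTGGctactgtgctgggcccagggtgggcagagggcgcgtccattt
Abcg8, chr17:84682871-84683120, plus strand: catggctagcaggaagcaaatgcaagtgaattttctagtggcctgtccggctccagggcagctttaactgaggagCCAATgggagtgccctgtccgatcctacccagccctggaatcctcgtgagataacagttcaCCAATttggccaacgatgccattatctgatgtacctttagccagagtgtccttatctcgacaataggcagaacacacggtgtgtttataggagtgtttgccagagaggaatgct
Fads3, chr19:10041298-10041547, plus strand: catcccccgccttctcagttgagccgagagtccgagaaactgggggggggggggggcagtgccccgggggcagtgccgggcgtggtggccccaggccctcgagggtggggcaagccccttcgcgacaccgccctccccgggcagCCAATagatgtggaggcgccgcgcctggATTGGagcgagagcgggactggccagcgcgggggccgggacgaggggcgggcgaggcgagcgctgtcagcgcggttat
Nsdhl, Abcg8 and Fads3 have 2 such boxes each, and Pmvk and Tm7sf2 have 1. Pmvk and Abcg8 each have a second annotated start whose window holds 0. Windows were found for 10 of the 12 genes that rose, and CCAAT lay in those of 7, namely these 5 with Cyp2c55 and Gp2. The windows of Slc3a1, Irf7 and Cuzd1, not shown, hold 0, so the promoters shown are not typical of all 10. Over 26994 genes with a window, 37.5% hold the letters. The Sp1 letters GGGCGG lay in the windows of 3 of the 10, Nsdhl, Tm7sf2 and Fads3, against 35.3% of genes. The E-box CACGTG lay in 0 of the 10, against 6.86% of genes. The 9-letter sterol element TCACNCCAC, also searched on both strands, lay in 0 of the 10 and in 1.23% of genes, so its letters are rare in windows of this length. For 13 of the 14 measured genes of cholesterol synthesis with a window, CCAAT was found in 12, GGGCGG in 10, CACGTG in 3 and TCACNCCAC in 0. These matches describe letters and do not show binding.

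A probe set is said to have risen or fallen where limma's adjusted p was under 0.05 and the difference at least 1.5-fold. By this rule 13 of the 11868 probe sets rose (0.11%) and 1 fell (0.00843%), together 0.118%, and 752 had an unadjusted p under 0.05. Among genes, each represented by its brightest probe set, 12 of 5928 rose (0.202%) and 0 fell (0%). A second description uses no test and asks whether both arrays of one group lay above both of the other, with a mean difference of at least 1.5-fold. It held for 56 probe sets that were higher in TgSREBP-2 (0.472%) and 15 that were lower (0.126%), or 45 genes (0.759%) and 10 genes (0.169%). Without the fold, the arrays lay apart at 16.6% of probe sets upwards and at 18.5% downwards. The increases were also the larger differences: 16 probe sets were at least 2-fold higher and 1 lower, and 4 were at least 4-fold higher and 0 lower. Median log2 signals of the 4 arrays were 4.75 to 4.76, duplicates correlated at 0.9926 in SREBP wild type and at 0.9934 in TgSREBP-2, and the median standard error of a difference was 0.114. The mean signal of the 18S ribosomal RNA controls was 6.47 and 8.70 on the wild type arrays and 6.06 and 8.06 on the transgenic arrays, so that it differed within each pool more than between them. No probe set named for Srebf2 was tested, so the transgene was not checked at its own transcript. The values carry no detection calls, and no fold is given where one group reads below 4.

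**Figure D1:**
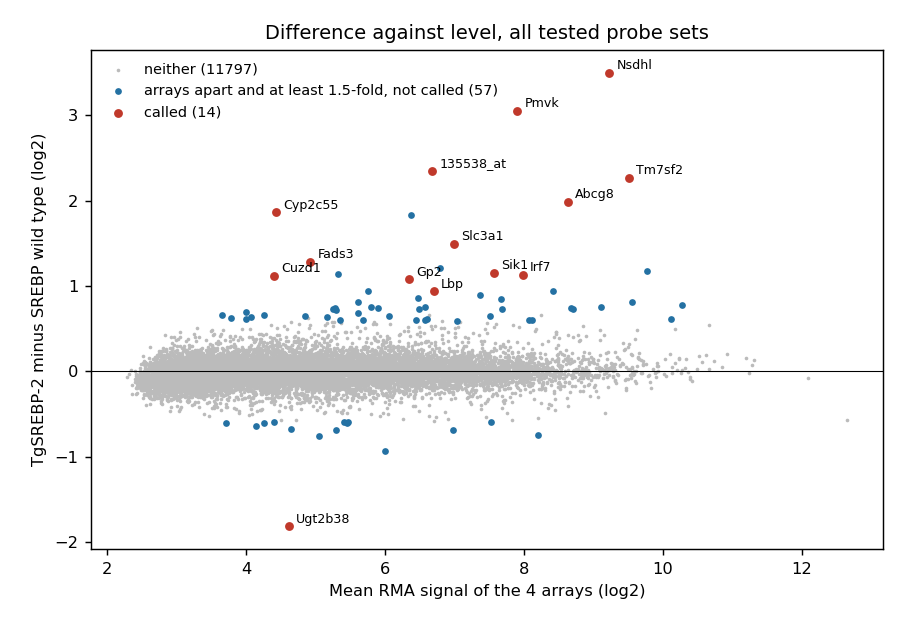
Each point is 1 of 11868 probe sets, with its mean log2 signal over the 4 arrays on the horizontal axis and the log2 difference, TgSREBP-2 minus SREBP wild type, on the vertical axis. Red points are the 14 probe sets that rose or fell and blue points the 57 others whose arrays lie apart by at least 1.5-fold. Nsdhl at 3.50 and Pmvk at 3.05 stand highest, and Ugt2b38 at -1.81 is the lowest.

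Of 14 measured genes of cholesterol synthesis 3 rose and 0 fell, and 2 of them gave the 2 largest differences of any probe set. Over all 5928 measured genes 12 rose (0.202%) and 0 fell, the share to set beside this and each list count below. Nsdhl, a dehydrogenase that removes methyl groups from the sterol ring after lanosterol, read 7.79 and 7.17 on the wild type arrays and 11.26 and 10.70 on the TgSREBP-2 arrays. The lowest transgenic array stood 2.91 above the highest wild type array, and the gene rose 11.3-fold (log2 difference 3.50, SE 0.279, adjusted p = 0.000171). Pmvk, the kinase that makes mevalonate diphosphate early in the pathway, read 6.64 and 6.12 in SREBP wild type and 9.54 and 9.33 in TgSREBP-2. Its groups did not overlap, and it rose 8.30-fold (log2 difference 3.05, SE 0.165, adjusted p = 5.31e-06). A second, dimmer probe set of Pmvk read 5.58 and 5.95 against 5.82 and 5.99, groups that overlap, with a difference of 0.14. Tm7sf2, a sterol reductase of the endoplasmic reticulum, read 8.70 and 8.06 in SREBP wild type against 10.97 and 10.33. In both groups its replicate 1 array was the brighter by 0.638, and it rose 4.81-fold (log2 difference 2.27, SE 0.233, adjusted p = 0.00151). These 3 kept their calls in every alternative that tested them, including each omission of 1 of the 10 arrays, with log2 differences of 3.19 to 3.80, 2.79 to 3.31 and 1.95 to 2.59 for these probe sets. With the mean over both of its probe sets, Pmvk still rose, by a log2 difference of 1.60 (adjusted p = 1.086e-05).

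The other 11 measured genes of the pathway did not pass the test, and the median difference over all 14 was 0.11, against -0.00117 over all 5928 genes. Cyp51, the lanosterol demethylase, came closest, with 4.71 and 4.81 in SREBP wild type and 6.25 and 5.55 in TgSREBP-2. Its groups lay apart, but its transgenic arrays differed from each other by more than its wild type arrays did (log2 difference 1.14, SE 0.187, adjusted p = 0.0575). It passed in 5 of the alternatives, with adjusted p = 0.00291 without TgSREBP-2 replicate 2 and 0.0334 among plain probe sets, those whose name ends in _at with no letter before it. Lss, which closes the sterol ring, read 5.02 and 4.95 against 5.54 and 5.50, but a difference of 0.54 is under the 1.5-fold floor (adjusted p = 0.126). Sc5d, a sterol desaturase, differed by 0.50 (adjusted p = 0.242) at signals of 2.98 to 3.66. The remaining 8 lay between 0.19 and -0.16. They include genes on either side of Pmvk in the pathway, with Mvk at 0.04 and Mvd at 0.01, the prenyl synthases Ggps1 at 0.03 and Fdps at -0.16, and, later, Hsd17b7 at 0.19, Dhcr7 at -0.06 and Msmo1 at -0.13. Idi2, a paralog of the isomerase of the pathway, differed by -0.02. Mvd was bright on all 4 arrays, with signals of 10.24 to 10.34, and differed by -0.00284 between Scap-/- and Scap wild type. Of these 8, only the probe sets of Hsd17b7 and Idi2 are plain. Those of Mvd, Dhcr7 and Msmo1 end in _r_at, those of Mvk and Fdps in _i_at and that of Ggps1 in _f_at. How well these probe sets report their transcripts was not tested, so a small difference here does not show that a transcript was unchanged. Second probe sets of Lss, Fdps, Ggps1 and Hsd17b7 differed by -0.10, 0.04, -0.00205 and 0.07.

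Export of sterols from the hepatocyte runs through Abcg5 and Abcg8, paired half-transporters that pump cholesterol and plant sterols into bile. Abcg8 read 7.61 and 7.68 in SREBP wild type and 9.91 and 9.35 in TgSREBP-2, so both transgenic arrays were far above both wild type arrays. The increase was 3.97-fold (log2 difference 1.99 with SE 0.155, adjusted p = 0.000171), and Abcg8 kept its call in every alternative that tested it, between 1.71 and 2.27. It was the 1 gene that rose among the 8 measured of sterol uptake, transport and SREBP control, and 0 fell. The other 7 lay between 0.17 and -0.09. Among them were the lysosomal sterol carrier Npc2 at 0.16, the cytosolic sterol carrier Stard4 at 0.17, the oxysterol-binding relatives Osbpl8 at 0.11 and Osbpl3 at -0.09, and Mbtps1, the Golgi protease that makes the first cleavage in SREBP, at -0.08. Of the 14 measured ABC transporters Abcg8 was the 1 that rose, and its relatives Abcg2 and Abcg3 differed by 0.29 and 0.08.

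**Figure D2:**
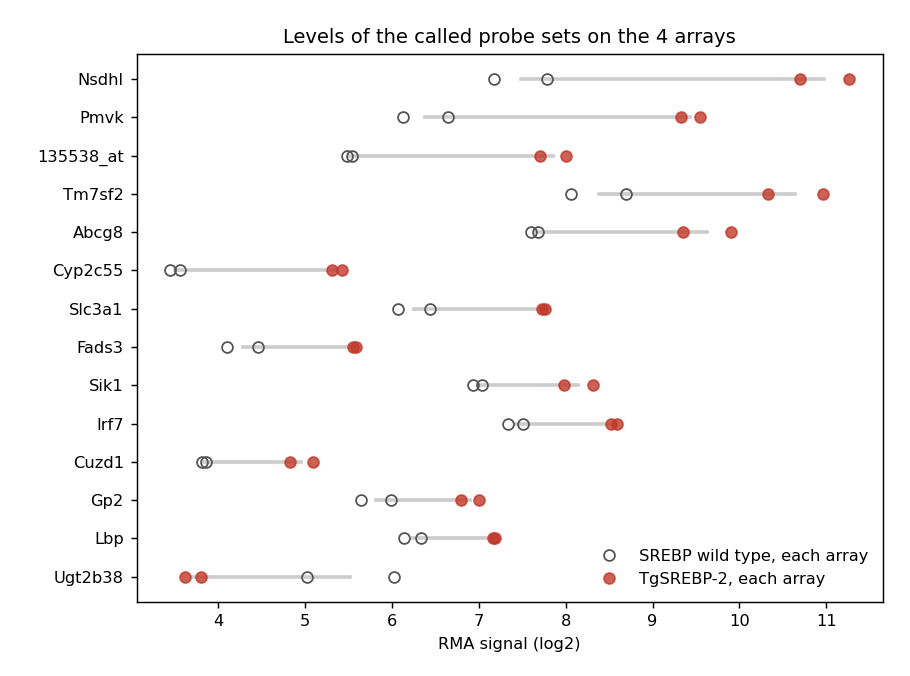
RMA signal (log2, horizontal axis) of the 14 probe sets that rose or fell, 1 point per array, with open circles for SREBP wild type and filled circles for TgSREBP-2 and a bar joining the group means. In all 14 the groups do not overlap, which the rule that chose them on these same arrays largely brings about. Without test or fold, the arrays lay apart at 16.6% of all probe sets upwards and at 18.5% downwards. The duplicates of Nsdhl, Pmvk and Tm7sf2 differ by up to 0.638, against group differences of 2.27 to 3.50.

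Fatty acid desaturases came next, with 1 of 11 measured genes of fatty acid and triglyceride synthesis rising and 0 falling. Fads3, a member of the desaturase family that acts on sphingoid bases, read 4.46 and 4.10 in SREBP wild type and 5.55 and 5.59 in TgSREBP-2. The transgenic duplicates lay 0.0348 apart and 1.09 above the nearer wild type array (2.44-fold, log2 difference 1.29, SE 0.130, adjusted p = 0.00151). A second probe set of Fads3, at 3.69 and 3.73 against 3.50 and 3.62, differed by -0.15. Fads2, the delta-6 desaturase that opens the synthesis of long polyunsaturated fatty acids, lies next to Fads3 on chromosome 19. It read 9.57 and 8.80 against 10.62 and 10.11, apart, with the wild type arrays the more scattered pair, and did not pass (log2 difference 1.18, SE 0.252, adjusted p = 0.211), though it did with the 18S signal as a covariate (1.04, adjusted p = 0.0202). Of the other measured genes near Fads3, Fth1 differed by 0.49, Best1 by -0.24, Incenp by -0.20 and Tmem258 by -0.10. Lpin3, a phosphatidate phosphatase, differed by -0.53 (7.75 and 7.69 against 7.22 and 7.16, adjusted p = 0.237) and by 0.41 at a second probe set. The other 8 lay between 0.20 for Hsd17b12 and -0.25 for Acly. Dgat1, which makes triglyceride, was among them at -0.06. The list's median was 0.04.

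Among 30 measured cytochrome P450 and other detoxification enzymes 1 rose and 0 fell by the brightest probe set of each gene, with a median of -0.01. Of all 5928 genes 12 rose (0.202%). Cyp2c55, a P450 of the arachidonic acid and drug-metabolising family, read 3.45 and 3.56 in SREBP wild type and 5.31 and 5.42 in TgSREBP-2. The 2 arrays of each group lay within 0.114 of each other (log2 difference 1.86, SE 0.282, adjusted p = 0.0318). It lost its call with limma's robust variance and without any 1 of the 6 arrays of the transgenic lines and their wild type, with adjusted p-values up to 0.320 while the difference stayed between 1.80 and 1.92. Its relative Cyp2c23 differed by -0.39. Ugt2b38, a UDP-glucuronosyltransferase that conjugates steroids and drugs, gave the single decrease at probe set 137211_i_at. It read 6.02 and 5.02 in SREBP wild type and 3.79 and 3.62 in TgSREBP-2, with the wild type arrays 1.01 apart (log2 difference -1.81, SE 0.245, adjusted p = 0.0142). The call was lost without either TgSREBP-2 array and in the fit of the 4 arrays alone, with differences of -2.32 to -1.31 over the omissions. The brighter probe set of Ugt2b38, which may match several members of this gene family, read 5.78 and 5.60 against 5.23 and 5.33 and differed by -0.41 (adjusted p = 0.626). Blvrb, a biliverdin reductase, missed the threshold at one probe set (6.46 and 5.93 against 7.57 and 7.24, log2 difference 1.21, adjusted p = 0.0587) and differed by 0.06 at a brighter one. The first probe set passed in 8 of the alternatives, among them the fit of the 6 arrays of the transgenic study and the omission of SREBP wild type replicate 1, with adjusted p-values of 0.00226 to 0.0471. The mitochondrial cytochrome b5 gene Cyb5b lay apart, at 6.44 and 5.97 against 7.43 and 6.49, without passing (0.76, adjusted p = 0.752).

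Of 109 measured solute carriers 1 rose and 0 fell, with a median of 0.00, against 12 of all 5928 genes that rose (0.202%). A single call in so long a list says little about solute carriers as a group. Slc3a1, the heavy subunit of the transporter for cystine and dibasic amino acids in kidney and intestine, read 6.44 and 6.07 in SREBP wild type and 7.73 and 7.77 in TgSREBP-2. The transgenic duplicates lay 0.0377 from each other and 1.29 above the nearer wild type array (2.81-fold, log2 difference 1.49, SE 0.185, adjusted p = 0.00771). The call was lost on omitting either TgSREBP-2 array or SREBP wild type replicate 2, with differences of 1.31 to 1.68. Slc3a1 lies 3 protein-coding genes from Abcg8 on chromosome 17. Between them Ppm1b differed by 0.33 (adjusted p = 0.847) and Lrpprc was not measured here, and beyond Abcg8 Thada differed by -0.13. The paralog Slc3a2 differed by -0.07. The thiamine transporter gene Slc19a2 lay apart, at 8.20 and 7.70 against 9.05 and 8.72, without passing (0.94, adjusted p = 0.257), and the sodium-proton exchanger gene Slc9a4 lay apart downwards (-0.60, adjusted p = 0.785).

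Sik1, a kinase induced by cAMP that restrains gluconeogenic and lipogenic transcription, read 7.04 and 6.94 in SREBP wild type and 8.31 and 7.98 in TgSREBP-2. Both transgenic arrays lay above both wild type arrays (2.23-fold, log2 difference 1.16 with SE 0.151, adjusted p = 0.0117), and the call was lost without either wild type array or TgSREBP-2 replicate 1. Its paralogs Sik2 and Sik3 differed by -0.01 and -0.19. It was the 1 gene that rose of 17 measured in glucose, glycogen and insulin signalling, where Pik3r1, a regulatory subunit of phosphoinositide 3-kinase, differed by 0.44 and the glycogen-targeting subunit Ppp1r3g by -0.46. It was also the 1 that rose of 9 immediate early and cAMP response genes, whose other members lay between 0.16 for Per2 and -0.14 for Dusp1.

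In innate immunity, Irf7, a transcription factor of the interferon response, read 7.50 and 7.34 in SREBP wild type and 8.52 and 8.59 in TgSREBP-2. The groups were 1.01 apart at their nearest arrays (2.19-fold, log2 difference 1.13 with SE 0.164, adjusted p = 0.0246). Of the 15 measured interferon response genes it was the 1 that rose, and the list's median was 0.00. Lgals3bp, a secreted galectin-binding protein, lay apart at 8.58 and 8.03 against 9.12 and 8.97 (0.74, adjusted p = 0.253), while 13 others lay between 0.10 and -0.21, among them Oas3, Oas1b, Ifih1 and Gbp2 at 0.10, -0.08, -0.06 and -0.21. Lbp, the plasma protein that carries bacterial lipopolysaccharide to its receptor, read 6.33 and 6.13 in SREBP wild type and 7.16 and 7.18 in TgSREBP-2. Its transgenic duplicates lay 0.0224 apart (1.92-fold, log2 difference 0.94, SE 0.148, adjusted p = 0.0421). It was the 1 that rose of 22 acute phase, complement and coagulation genes, where the haem carrier Hpx differed by 0.54, haptoglobin Hp by 0.07 and the fibrinogen chain Fga by -0.49. Irf7 lost its call without any 1 of the 6 arrays of the transgenic study, and Lbp without those or either Scap wild type array, with differences of 1.05 to 1.21 and 0.84 to 1.04. Of the macrophage and Kupffer cell markers 4 were measured, and all 4 differences were above 0 with none passing. The complement receptor Vsig4 differed by 0.74 (7.59 and 7.04 against 8.28 and 7.84, adjusted p = 0.406), Laptm5 by 0.54, C1qc by 0.22 and Lyz1 by 0.09. Their mean level was 7.14 and 6.88 in SREBP wild type against 7.50 and 7.32 in TgSREBP-2. It was higher still in TgSREBP-1a, at 7.66 and 7.62, where Vsig4 differed from SREBP wild type by 1.14 (adjusted p = 0.0185). In Scap wild type it was 7.30 and 7.16 and in Scap-/- 7.44 and 7.14. The part of this level in the values of Irf7 and Lbp was not tested.

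Cuzd1 and Gp2, genes of the exocrine pancreas, rose in the TgSREBP-2 pool, in a tissue that should hold little of their transcripts. Cuzd1, a zymogen granule protein of pancreatic acinar cells, read 3.81 and 3.86 in SREBP wild type and 5.09 and 4.83 in TgSREBP-2, and it rose (log2 difference 1.12, SE 0.116, adjusted p = 0.00151). Gp2, the main membrane protein of those granules, read 5.99 and 5.64 against 7.0 and 6.79, with groups that do not overlap. It rose 2.11-fold (log2 difference 1.08, SE 0.160, adjusted p = 0.0273), a call lost without SREBP wild type replicate 2, either TgSREBP-2 array or either TgSREBP-1a array and in the fit of the 4 arrays alone. Cpa1, the pancreatic carboxypeptidase, had 10.25 and 9.53 against 10.84 and 10.49 and did not pass (0.78, adjusted p = 0.348), though it did without SREBP wild type replicate 1 (1.14, adjusted p = 0.036). Of 10 measured acinar markers 2 rose and 0 fell, with a median of 0.29. The others were Ctrc at 0.51, Cela2a at 0.34, Amy2a5 at 0.25, Ptf1a at 0.03, Cpb1 at 0.01, Rbpjl at -0.02 and Pnliprp1 at -0.21. The mean level of the 10 was 5.26 and 5.04 on the wild type arrays and 5.61 and 5.46 on the transgenic arrays. On the arrays of the other pools it was 4.40 and 4.42 in TgSREBP-1a, 4.90 and 4.87 in Scap wild type and 4.46 and 4.37 in Scap-/-, so that TgSREBP-2 was the highest of the 5 pools. The part of these transcripts in the other differences was not tested.

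**Figure D3:**
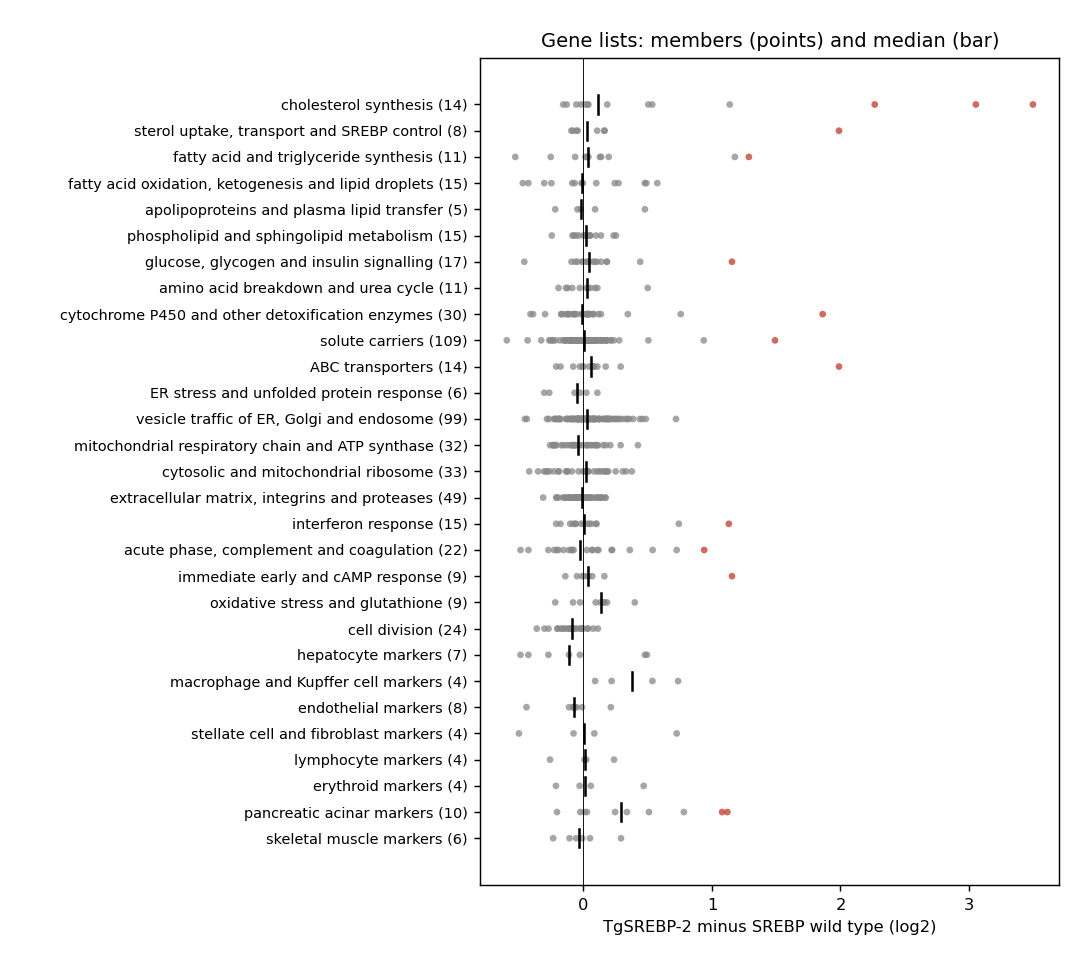
Log2 differences, TgSREBP-2 minus SREBP wild type (horizontal axis), of the measured genes of each list with at least 4 of them, 1 point per gene, with the number of genes in brackets, the median as a black bar and genes that rose in red. Medians lie between -0.11 and 0.13 except for macrophage markers at 0.38 and acinar markers at 0.29. Each red point is among the highest genes of its list, a place that follows from how the red genes were chosen.

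Below Ugt2b38, differences downwards were small and none passed. Serpina12, the secreted serpin vaspin, read 8.69 and 8.48 in SREBP wild type and 7.73 and 7.95 in TgSREBP-2 (log2 difference -0.75, adjusted p = 0.11). Its groups lay apart, and it passed in 5 of the alternatives, among them the fit of the 6 arrays of the transgenic study. Epcam, an adhesion molecule of bile duct and other epithelial cells, read 8.52 and 8.45 against 7.90 and 7.99 at its brightest probe set (-0.54, adjusted p = 0.0587) and differed by -0.01 and -0.11 at the others. The remaining bile duct markers measured, Sox9 and Cldn7, differed by 0.18 and -0.03. Arhgap6, a GTPase regulator, differed by -0.67 and passed without SREBP wild type replicate 2 (-0.99, adjusted p = 0.0154). Lypd3 differed by -0.75, the vesicle GTPase Rab3c by -0.64, the Notch ligand Dll1 by -0.61, the peptide gene Grp by -0.60, the actin nucleator Fmn2 by -0.60, the placental hormone relative Prl5a1 by -0.59 and the keratin Krt36 by -0.59, and these and Arhgap6 all lay apart at adjusted p-values of 0.223 to 0.643. Zscan21 and Tysnd1 differed by -0.56 and -0.52. Other probe sets of Fmn2, Rab3c, Dll1, Krt36 and Tysnd1 lay nearer to 0, from -0.41 to 0.09. For Fmn2, Rab3c and Tysnd1 they include the brightest of the gene, at -0.17, -0.04 and -0.20. At the probe sets given first, Arhgap6, the genes from Lypd3 to Krt36 and Tysnd1 read 3.11 to 5.93 on the 4 arrays.

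One of the probe sets that rose has no gene name in the annotation. 135538_at read 5.48 and 5.54 in SREBP wild type and 8.01 and 7.71 in TgSREBP-2, and its nearest arrays were 2.17 apart (5.09-fold, log2 difference 2.35, SE 0.123, adjusted p = 5.31e-06). It kept its call in every alternative that tested it, between 2.2 and 2.50. A second unnamed probe set, 168288_f_at, read 5.89 and 5.03 against 7.59 and 6.98 and did not pass (1.83, adjusted p = 0.0948). Among the genes that lay apart upwards without passing, the following are named after their values were seen: Prkaca, the catalytic subunit of the cAMP-dependent kinase, at 0.94, Entpd5, a nucleotidase of the endoplasmic reticulum, at 0.90, Rnf213 at 0.86, the paraoxonase Pon3 at 0.75 and the sepiapterin reductase Spr at 0.61.

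The closest of the other pools is TgSREBP-1a, and the 2 transgenic pools were compared directly. Between them 29 probe sets were higher in TgSREBP-2 (0.244%) and 32 were lower (0.27%). Of the 13 probe sets that rose in TgSREBP-2, 5 were higher than in TgSREBP-1a, those of Slc3a1, Fads3, Lbp, Cuzd1 and Gp2. Both comparisons use the same 2 TgSREBP-2 arrays, so the second is not independent of the first. Slc3a1 read 6.16 and 6.02 in TgSREBP-1a, 1.66 below TgSREBP-2 (95% interval 1.25 to 2.06, adjusted p = 0.00137), and differed by -0.17 between TgSREBP-1a and SREBP wild type. Fads3 read 4.20 and 4.47, 1.24 below TgSREBP-2 (0.95 to 1.52, adjusted p = 0.000943). Lbp read 6.33 and 6.25, 0.88 below (0.55 to 1.2, adjusted p = 0.0253). For the acinar genes the TgSREBP-1a pool lay below both others, so that TgSREBP-2 exceeded it by 1.78 for Cuzd1 and by 2.56 for Gp2. Of these 5, the call of Lbp was lost without any 1 of the 4 transgenic arrays (adjusted p up to 0.218), and the others kept theirs on each omission of 1 array. The comparison ran the other way for Fads2, at 11.91 and 11.75 in TgSREBP-1a, where TgSREBP-2 was lower by 1.47 (interval of the difference -2.02 to -0.91, adjusted p = 0.026). That call too was lost without any 1 of the 4 transgenic arrays, with adjusted p up to 0.321.

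For the sterol genes a difference between the transgenic pools did not pass. It was 0.38 for Nsdhl (95% interval -0.23 to 0.99, adjusted p = 0.861), 0.12 for Pmvk (-0.24 to 0.48, adjusted p = 0.955), 0.81 for Tm7sf2 (0.30 to 1.32, adjusted p = 0.28) and 0.64 for Abcg8 (0.30 to 0.98, adjusted p = 0.161). The intervals are not adjusted over probe sets, and those of Tm7sf2 and Abcg8 lie above 0 although their adjusted p-values did not pass. The interval of Nsdhl reaches 0.99. For 135538_at, Irf7, Sik1 and Cyp2c55 the differences were 0.49, 0.72, 0.17 and 0.18, with adjusted p-values of 0.18, 0.13, 0.922 and 0.961. Against SREBP wild type, which both comparisons share, 81 probe sets rose in TgSREBP-1a (0.683%). They include 7 of the 13 probe sets that rose in TgSREBP-2. These differed by 3.12 for Nsdhl, 2.93 for Pmvk, 1.86 for 135538_at, 1.45 for Tm7sf2, 1.35 for Abcg8, 1.68 for Cyp2c55 and 0.99 for Sik1. Their adjusted p-values were 4.12e-06 to 0.0138. Irf7, at 0.41, did not pass there (adjusted p = 0.433). Slc3a1, Fads3 and Lbp differed by -0.17, 0.05 and 0.06 without passing. Cuzd1 and Gp2 differed by -0.66 and -1.48 (adjusted p = 0.0195 and 0.000837).

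The Scap arrays are not among the 4 of this comparison, though the fit takes 1 estimate of the spread from all 10. There 10 probe sets rose or fell (0.0843%) and 5 of them fell (0.0421%). Of the 13 probe sets that rose in TgSREBP-2, 4 fell in Scap-/- (30.8%), and they make up 80% of the 5 that fell there. They are those of Nsdhl at -2.47 (adjusted p = 0.00623), Tm7sf2 at -1.83 (adjusted p = 0.00963), Pmvk at -1.73 (adjusted p = 0.00149) and the acinar gene Gp2 at -1.32 (adjusted p = 0.00783). The remaining probe set that fell is that of Cpa1, another acinar gene, at -2.86 (adjusted p = 0.000152). Cpa1 read 8.37 and 8.39 in Scap wild type and 5.59 and 5.45 in Scap-/-. The part of acinar transcripts in this overlap was not tested. Nsdhl read 10.24 and 9.75 in Scap wild type and 7.93 and 7.13 in Scap-/-, so the groups were apart in that pair too. On omitting 1 array, Pmvk kept its call, Nsdhl lost it without Scap wild type replicate 1 (adjusted p = 0.101), Tm7sf2 (up to 0.158) with either Scap wild type array or the second Scap-/- array removed, and Gp2 (up to 0.142) on dropping replicate 1 of the Scap wild type pool or replicate 2 of the knockout pool. Abcg8 read 7.86 and 7.64 against 7.58 and 7.50, a difference of -0.21, and 135538_at differed by -0.23. Slc3a1, Sik1, Irf7, Fads3 and Lbp differed by -0.49, -0.12, -0.26, 0.22 and 0.07 without passing, and Cyp2c55 by 0.98, the 2 Scap wild type arrays reading 5.03 and 4.25 and the Scap-/- arrays 6.10 and 5.13.

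**Figure D4:**
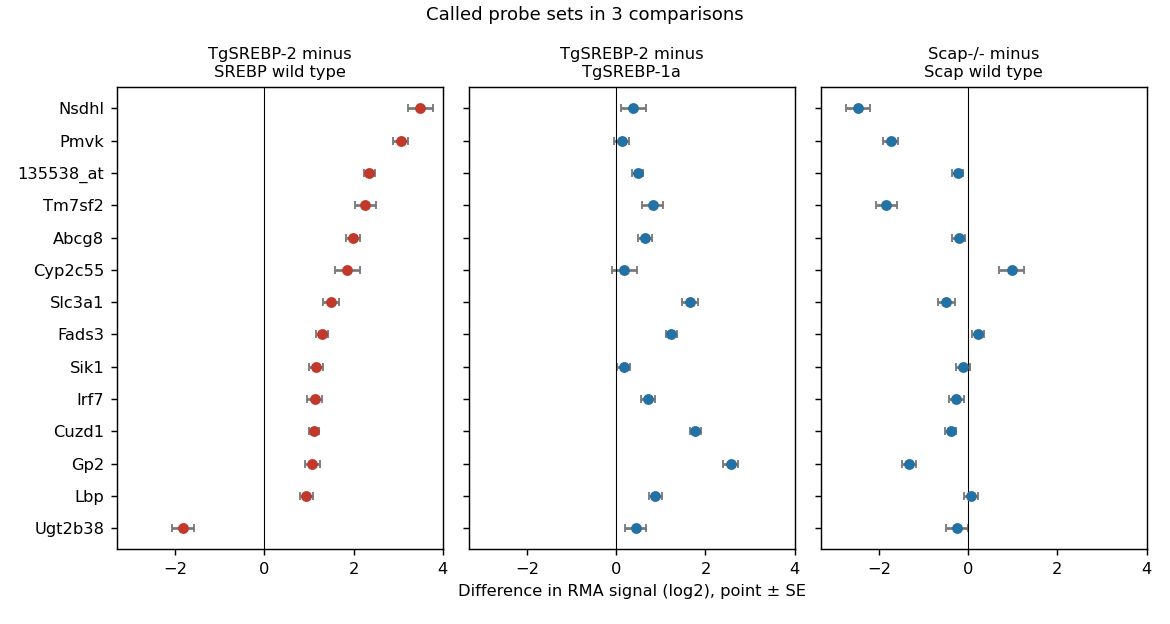
Log2 difference with its standard error (horizontal axis, point and bar) for the 14 probe sets that rose or fell, in TgSREBP-2 minus SREBP wild type on the left, TgSREBP-2 minus TgSREBP-1a in the middle and Scap-/- minus Scap wild type on the right. Nsdhl, Pmvk and Tm7sf2 lie at 2.27 to 3.50 on the left and at -2.47 to -1.73 on the right. In the middle panel Gp2 at 2.56, Cuzd1 at 1.78 and Slc3a1 at 1.66 lie farthest from 0.

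The labelled tissue was checked at 7 measured hepatocyte markers, of which 0 rose or fell. Apoh read 7.62 to 8.51, Tdo2 7.74 to 7.80 and Fga 8.72 to 9.85 on the 4 arrays, whereas Ahsg and Serpina1a, abundant plasma proteins of hepatocytes, read low on this array at 2.66 to 2.85 and 3.22 to 3.71. The mean level of the 7 was 6.42 and 6.13 in SREBP wild type and 6.32 and 6.12 in TgSREBP-2. Among 8 endothelial, 4 lymphocyte, 4 erythroid, 6 skeletal muscle and 4 stellate cell and fibroblast markers 0 rose or fell, and the largest difference was that of Colec11, a collectin of stellate cells, at 0.73 (adjusted p = 0.783).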

How the data were processed

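The deposited table holds log2 expression values for 10 arrays that, per the submitters' processing notes, come from RMA, a method that subtracts background, equalises the arrays and combines the probes of each probe set. The version is not given in the sources used here. Microarray Suite 5.0, the scanner software, is named in the design text as well. The log2 scale was taken from the range of the values, and they were not transformed further. RMA shrinks large differences at low signal, so folds there may understate the change.

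All 10 arrays and 5 groups entered one fit in limma 3.58.1 (R 4.3.3; lmFit and eBayes, 5 residual and 6.26 prior degrees of freedom), with two-sided tests and Benjamini-Hochberg adjustment over 11868 probe sets. The procedure was tested on simulated data. Their noise was drawn independently for each array, without the replicate pattern described at the end, so they cannot show how the procedure behaves under that pattern. Arrays hold no counts, and precision is limited by how many there are. A gene is represented by its probe set with the highest mean. Genes are named from the platform's annotation, and RefSeq gave promoter windows and the order of neighbouring genes. Named were all probe sets that passed, list members that passed or lay apart by 1.5-fold, and all measured genes of cholesterol synthesis and sterol transport. Also named were the 15 largest differences each way, among probe sets with 1 gene symbol, that lay apart at an unadjusted p under 0.05. Clone and predicted names were left out of these 15. The comparison, lists and naming rule were chosen with earlier results of these data known, so no count over a list is independent evidence. Lbp and Sik1 have no promoter window here.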

Additional observations from a re-analysis of the deposited data

How the results depend on the processing

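Every probe set that rose or fell kept its direction under every alternative that tested it, while 9 named genes that had not passed, all within 0.107 of 0, changed sign under some. Of the counts, 14 probe sets that rose or fell against SREBP wild type became 4 among plain _at probe sets (3 of the 14 and Cyp51), 9 with limma's treat against 1.2-fold and 7 to 17 on leaving out 1 array (7 without TgSREBP-2 replicate 1, 9 without SREBP wild type replicate 2). The 71 probe sets that lay apart by 1.5-fold became 28 among plain _at probe sets and 64 to 202 without 1 array. The 61 that differed between the transgenic pools became 36 among plain _at probe sets, 31 with a 2-fold floor, 27 with treat, 94 in the fit of the 4 arrays compared and 23 to 38 without 1 array. Other normalisations (quantile, median, loess), brighter probe sets, a variance trend, robust variance and no floor gave 11 to 16 against SREBP wild type. Of the 12 genes that rose, 11 did so with the mean over a gene's probe sets, where Fads3 dropped out and Ugt2b38 fell (-1.11). With treat Cyp2c55, Lbp, Gp2, Irf7 and Sik1 did not pass, and with a 2-fold floor Lbp did not. Suffixes other than plain _at, which mark probes that may match several transcripts or were chosen under looser rules, are carried by 11 of the 14 (78.6%) and by 36.9% of all probe sets. The probe sets of Nsdhl, Pmvk, Tm7sf2 and Abcg8 are among the 11, so the plain _at setting did not test them. The cause of these shifts was not tested.

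The replicate numbers are shared by the groups, but nothing says what they stand for. The deviations of same-numbered arrays correlated at 0.22 for SREBP wild type and TgSREBP-2 and at -0.17 for the transgenic pools. With the replicate number as a block, 37 probe sets rose or fell against SREBP wild type (31 and 6, including all 14, and among named genes that had not passed Fads2, Blvrb, Slc19a2, Cyp51, Lgals3bp, Vsig4 and Serpina12, at adjusted p-values of 0.00148 to 0.0354) and 96 differed between the transgenic pools. Chosen after seeing the data, a replicate block with the TgSREBP-2 numbers crossed gave 23 against SREBP wild type, and the 18S signal as a covariate gave 22.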

Other observations

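Several other lists held no gene that rose or fell. Of 15 genes of fatty acid oxidation, ketogenesis and lipid droplets 0 passed, with a median of -0.01, from the peroxisomal and cytosolic enzymes Acot12 at 0.57 and Decr2 at 0.49 to the lipid droplet protein Plin5 at -0.43 and the pantetheinase Vnn1 at -0.47. The hormone Fgf21 differed by -0.30 and its co-receptor Klb by -0.50 (6.22 and 6.38 in SREBP wild type against 5.75 and 5.85 in TgSREBP-2, adjusted p = 0.183). Of 11 genes of amino acid breakdown and the urea cycle 0 passed, with the alanine transaminase Gpt at 0.50. Of 24 cell division genes 0 passed and 20 had a difference below 0, with a median of -0.09, against 2987 of 5928 genes below 0. The lowest were Rrm1 at -0.36 and Racgap1 at -0.30. Of 99 vesicle traffic genes 1 lay apart, Exoc5 at 0.72 (adjusted p = 0.79). The ribosome (33 genes), respiratory chain (32), extracellular matrix (49), phospholipid (15), apolipoprotein (5), oxidative stress (9) and ER stress (6) lists had 0 calls and medians between -0.05 and 0.13. In the smallest lists 0 passed: of bile acid synthesis and transport 2 genes were measured, Klb and the bile acid exporter subunit Slc51a at 0.04, of neutrophil and mast cell markers 1, the elastase Elane at -0.16, and of adipocyte markers 2, at -0.10 and -0.02.

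Within the pools, the replicate 1 array read above replicate 2 in 47 of the 56 probe sets that lay apart upwards in SREBP wild type and in 44 of them in TgSREBP-2, against 48.3% and 49% of all probe sets. The part of this pattern in the differences was not tested.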
